A study of Mus musculus with 30 samples.

Results

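The 40 genes described here encode the contractile machinery of skeletal muscle and the proteins that set fibre type. They were taken by gene symbol from a deposited table of 55426 genes, and all 40 symbols were found. From textbook knowledge of which isoform prevails in which fibre, 10 were treated as slow-fibre isoforms (Myh7, Myl2, Myl3, Tnnt1, Tnni1, Tnnc1, Tpm3, Atp2a2, Casq2 and Myoz2) and 15 as fast-fibre isoforms (Myh1, Myh2, Myh4, Myl1, Mylpf, Tnnt3, Tnni2, Tnnc2, Actn3, Atp2a1, Casq1, Mybpc2, Myoz1, Pvalb and Tpm1). The other 15 are shared between fibre types or of mixed use (Tpm2, Actn2, Acta1, Actc1, Ryr1, Ckm, Mb, Ttn, Neb, Mybpc1, Tcap, Ldb3, Des, Sln and Cacna1s).

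RNA was sequenced from mouse Achilles tendon and calcaneus (the bone of the heel, where the tendon attaches) after loading by light-driven contraction of muscle. Each tissue had 5 groups of 3 libraries: naive at day 0, unstimulated at day 5 and at day 12, and stimulated at day 5 and at day 12. Every group, controls included, carries the genotype Acta1,Ai32. Ai32 is a reporter allele that makes channelrhodopsin, a light-gated cation channel, in cells where Cre recombinase has acted, and the promoter of Acta1, a skeletal muscle actin gene, is used to drive Cre in muscle fibres. The labels used here give neither the age nor the sex of the mice. They also do not say whether the 3 libraries of a group came from separate animals. The p-values therefore set differences against the spread between libraries, which may not be a spread between animals. Libraries are numbered as in their labels, and values are listed in the order of libraries 1, 2 and 3.

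Total counts per library ran from 24488997 to 44566322 in tendon and from 19255983 to 35035536 in bone. Bone libraries 1 and 2 of the unstimulated group at day 5 differed far less than any other pair of replicates (biological coefficient of variation 2.64%, against 8.88% to 33.2% in the 29 other pairs). They were summed and counted as 1 library, so that this group has n = 2, listed with the sum first, and bone has 14 libraries. The tissue labels were set beside marker genes: those of osteoblasts and osteocytes told the tissues apart, and those of tendon fibroblasts did not. The 6 markers of tendon fibroblasts, all detected, summed to 0.0379% to 0.351% of counts in tendon and 0.156% to 0.491% in bone, and the 7 of osteoblasts and osteocytes to at most 0.00507% in tendon and 0.220% to 0.443% in bone. The 40 sarcomere and fibre type genes held far more of the tendon libraries than the tendon markers did: 20.3% ± 2.08 (SD, n = 3) of all counts in naive tendon. Their share was 25% ± 3.94 unstimulated and 22.3% ± 0.745 stimulated at day 5, and 27.8% ± 0.668 unstimulated and 26.5% ± 1.45 stimulated at day 12 (n = 3 each). In bulk tissue, a change in how much muscle a sample holds and a change in message per muscle fibre cannot be told apart.

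As background, a sarcomere is built of thick filaments of myosin and thin filaments of actin. Calcium released from the sarcoplasmic reticulum binds troponin C, and the troponin and tropomyosin complex then lets myosin engage actin. Fibres differ in which paralog they use at nearly every step: slow oxidative fibres use Myh7 with slow light chains, slow troponins and the Atp2a2 calcium pump, while fast fibres use Myh2 (type IIa), Myh1 (type IIx) or Myh4 (type IIb), in order from the more oxidative to the more glycolytic, with fast troponins, Atp2a1 and the calcium buffer Pvalb. Fibre type responds to nerve activity and use, and the calf muscles that pull on the Achilles tendon include both a slow one, the soleus, and mixed fast ones.

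The promoters of 6 of these genes are shown first because the results turn on their products: the 4 adult myosin heavy chains, whose proportions differed between libraries and between tissues, and the slow and fast troponin C genes, which stand for the paralog pairs. RefSeq's promoter table (build GRCm38.p6, 250 bases before to 50 after the start) matched 32 of the 40 genes. The windows shown are chr11:67170777-67171076 (plus strand) for Myh2, chr11:67199852-67200151 (plus strand) for Myh1, chr11:67237562-67237861 (plus strand) for Myh4, chr14:54994577-54994876 (minus strand) for Myh7, chr14:31208062-31208361 (plus strand) for Tnnc1 and chr2:164779685-164779984 (minus strand) for Tnnc2. Myh2, Myh1 and Myh4 lie side by side in that order on chromosome 11, with 2534 bases between the annotated Myh2 and Myh1 and 13453 between Myh1 and Myh4. Each sequence reads 5′ to 3′ on the gene's own strand, and capitals mark matches on either strand to an E-box (CANNTG), a TATA box (TATAAA), an MCAT element (CATTCC), a MEF2 site or a CArG box; matches may overlap one another.
Myh2: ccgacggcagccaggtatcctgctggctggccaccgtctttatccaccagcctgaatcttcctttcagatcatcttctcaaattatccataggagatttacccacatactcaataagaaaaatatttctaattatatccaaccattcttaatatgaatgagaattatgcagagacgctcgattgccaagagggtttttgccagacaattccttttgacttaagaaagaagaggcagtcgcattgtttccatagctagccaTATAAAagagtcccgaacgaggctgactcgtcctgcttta
Myh1: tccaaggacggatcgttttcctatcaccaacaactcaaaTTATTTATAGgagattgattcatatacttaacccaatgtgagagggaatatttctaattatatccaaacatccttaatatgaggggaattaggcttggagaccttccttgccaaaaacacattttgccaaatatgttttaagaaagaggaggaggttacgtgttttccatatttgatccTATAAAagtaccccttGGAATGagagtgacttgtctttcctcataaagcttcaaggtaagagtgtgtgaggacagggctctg
Myh4: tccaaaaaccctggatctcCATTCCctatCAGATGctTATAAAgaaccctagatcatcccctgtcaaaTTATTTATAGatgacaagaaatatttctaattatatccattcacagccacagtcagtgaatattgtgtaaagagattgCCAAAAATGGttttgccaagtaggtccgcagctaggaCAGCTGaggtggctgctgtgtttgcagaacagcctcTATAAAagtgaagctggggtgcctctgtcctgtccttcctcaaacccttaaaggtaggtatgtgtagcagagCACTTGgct
Myh7: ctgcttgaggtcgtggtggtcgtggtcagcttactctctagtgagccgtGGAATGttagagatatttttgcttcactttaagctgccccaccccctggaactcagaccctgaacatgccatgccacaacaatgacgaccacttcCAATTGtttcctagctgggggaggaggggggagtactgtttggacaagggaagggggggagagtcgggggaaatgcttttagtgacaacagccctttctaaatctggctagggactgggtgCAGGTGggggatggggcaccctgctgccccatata
Tnnc1: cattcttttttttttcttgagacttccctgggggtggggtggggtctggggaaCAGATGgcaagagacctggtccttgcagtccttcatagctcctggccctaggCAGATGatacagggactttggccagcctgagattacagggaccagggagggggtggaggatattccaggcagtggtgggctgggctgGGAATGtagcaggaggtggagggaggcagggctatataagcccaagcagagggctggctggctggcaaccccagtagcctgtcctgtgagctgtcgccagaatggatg
Tnnc2: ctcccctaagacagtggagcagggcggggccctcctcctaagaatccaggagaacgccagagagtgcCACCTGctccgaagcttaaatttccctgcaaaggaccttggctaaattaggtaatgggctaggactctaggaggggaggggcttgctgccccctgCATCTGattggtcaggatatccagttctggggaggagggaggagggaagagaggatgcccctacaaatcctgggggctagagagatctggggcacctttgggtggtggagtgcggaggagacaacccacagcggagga

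TATAAA was present in the windows of the fast myosins Myh2, Myh1 and Myh4 and not in those of Myh7, Tnnc1 or Tnnc2. A MEF2 site, overlapping a TATAAA match on the other strand, stood in the Myh1 and Myh4 windows. E-boxes were found in Myh4 (3), Myh7, Tnnc1 and Tnnc2 (2 each) and not in Myh1 or Myh2, and a CArG box in Myh4. Over all 32 genes with a window, an E-box stood in 27 (9 of 9 slow, 8 of 11 fast and 10 of 12 shared genes), against 72.3% of all 32851 promoters in the table. TATAAA was in 8 of the 32 (13.6% of all promoters), CATTCC in 11 (14.7%), a MEF2 site in 6 (3.2%) and a CArG box in 5 (1.6%). Such matches describe the letters and were not related to the measurements below.

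Fast isoforms dominated the tendon libraries. Scaled by exon length, Acta1, the actin of skeletal thin filaments, was the most abundant of the 40 genes (median 24236 CPM per kb over 15 libraries, CPM being library-scaled counts with TMM factors). It was followed by Tnnc2, fast troponin C (8576 CPM per kb), Mylpf, the fast regulatory light chain (8392), Atp2a1, the fast calcium pump (7943), Tnnt3, fast troponin T (7472), and Myh4, the type IIb heavy chain (6878). The other adult heavy chains were lower, with medians of 1263 for Myh1, 593 for Myh2 and 167 for Myh7, and Sln, the peptide inhibitor of the calcium pump, was the lowest of the 40 (32.6 CPM per kb). The 15 fast genes together made up 11.5% ± 2.36 of counts in naive tendon and the 10 slow genes 0.961% ± 0.554 (n = 3). Slow genes varied most among libraries: the highest tendon library exceeded the lowest by a median of 18 times over the 10 slow genes (range 6.94 to 136), 2.66 times over the 15 fast genes (2.19 to 41.9) and 1.98 times over the 15 shared genes (1.62 to 10.1). Myl2 was the slow gene at 136 and Myh2 the fast gene at 41.9.

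**Figure D1:**
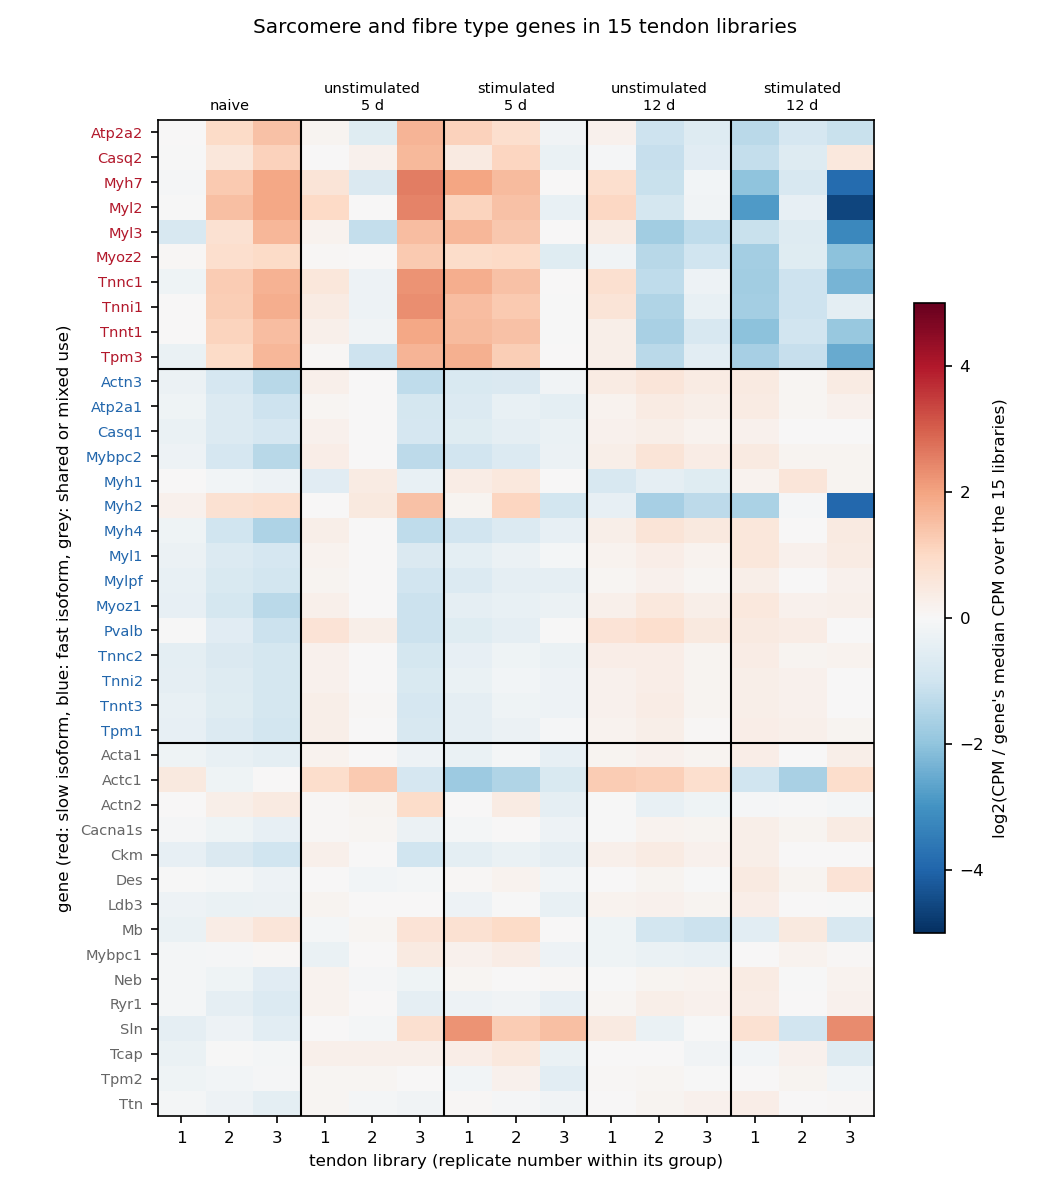
Levels of the 40 genes in the 15 tendon libraries, on a log2 scale relative to each gene's median, with genes in rows by role and libraries in columns by group. The slow genes share the same high and low libraries within the naive and day 5 groups and are low in most day 12 libraries, while the fast genes are mostly higher at day 12.

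Myh4 was 35516, 20639 and 14160.3 CPM in the naive libraries, 50999, 42422 and 17318 unstimulated and 21364, 25844 and 31117 stimulated at day 5, and 50909, 64795 and 58203 unstimulated and 61637, 41379 and 56992 stimulated at day 12. Myh4, whose product is the fastest myosin, was at least 41379 CPM in all 6 libraries of day 12, above all 3 naive and all 3 stimulated day 5 libraries. Myh1 was 8108, 7289 and 6808 CPM in the naive libraries, 5462, 10561 and 6283 unstimulated and 10479, 11495 and 8022 stimulated at day 5, and 4655, 5933 and 5308 unstimulated and 9173, 12127 and 8739 stimulated at day 12. Within each day, Myh1 was higher in stimulated than in unstimulated means, and at day 12 the groups did not overlap. Myh2 was 4862, 7086 and 7584 CPM in the naive libraries, 4233, 5887 and 11807 unstimulated and 4676, 9030.3 and 2258 stimulated at day 5, and 3218, 1331 and 1687 unstimulated and 1415, 4027 and 282 stimulated at day 12. Myh2, of fast oxidative fibres, spread widely within groups, with its lowest value in stimulated day 12 library 3. Myh7 was 1394, 3569.7 and 5570.2 CPM in the naive libraries, 2246, 869 and 8436 unstimulated and 5612, 4272 and 1440.1 stimulated at day 5, and 2579, 672 and 1302 unstimulated and 356, 819 and 99 stimulated at day 12. Myh7, the slow myosin, ranged from 869 to 8436 CPM within the unstimulated day 5 group alone, and its lowest value was again in stimulated day 12 library 3.

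The slow genes were high or low together from library to library. The 5 tendon libraries with the most Myh7 were naive 2 and 3, unstimulated day 5 library 3, and stimulated day 5 libraries 1 and 2. Those same 5 libraries were the 5 highest for 9 of the 10 slow genes, Myh7 among them by the choice of libraries. The exception was Casq2, the slow and cardiac calsequestrin, with 4 of the 5. The same 5 were also the lowest libraries for 7 of the 15 fast genes (Actn3, Casq1, Mybpc2, Myh4, Myl1, Mylpf and Pvalb). At least 4 of them were among the 5 lowest for 13 fast genes. Among the fast genes Myh2 went with the slow set, with 4 of the 5 among its highest, as did Mb, the oxygen-binding myoglobin, and Actn2, the α-actinin of all fibres. These 5 libraries come from 3 groups, and none is from day 12. This is a description of the same libraries throughout and carries no test. The share of all genes with these libraries highest or lowest was not counted. Markers of heart muscle, which also uses several of the slow isoforms, summed to at most 0.00956% of counts in tendon, with the atrial light chain Myl7 at 0 in all 15 libraries.

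Light stimulation was compared with no stimulation at each day in 1 fit over the 15 tendon libraries, with edgeR's quasi-likelihood test and Benjamini-Hochberg adjustment over all 17108 genes tested, every one of the 40 among them. No member passed an adjusted p of 0.05 at day 5, where 0.0585% of all genes did, nor at day 12, where 0.345% did. At an unadjusted p under 0.05 (edgeR) there were 3 members at day 5 and 2 at day 12, beside 1417 and 1916 of all genes. DESeq2 called 0 and 1 of the members. At day 12 the smallest adjusted p was that of Myh1, the IIx heavy chain, with 10013 ± 1843 CPM stimulated and 5299 ± 639 unstimulated (SD, n = 3 each). Its log2 fold change was 0.92 ± 0.23 (SE; 1.89-fold), with an adjusted p of 0.111 in edgeR and 0.0072 in DESeq2. At day 5 the Myh1 difference was 0.43 ± 0.23 (adjusted p = 0.693), with overlapping libraries. Myh4 differed by -0.50 ± 0.37 at day 5 and -0.12 ± 0.37 at day 12 (adjusted p = 0.823 and 0.959), Myh2 by -0.46 ± 0.75 and -0.12 ± 0.75 (0.945 and 0.982), and Myh7 by -0.03 ± 0.89 and -1.84 ± 0.92 (0.998 and 0.506). At day 5 the sign for Myh2 turned without unstimulated library 3, and that for Myh7 without unstimulated or stimulated library 3.

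Of the shared set, Actc1 and Sln had large but unresolved differences and Des a smaller one. These genes were named after their values were seen. Actc1 was 549, 344 and 397 CPM in the naive libraries, 724, 990.2 and 223 unstimulated and 112, 140.1 and 233 stimulated at day 5, and 954, 917 and 715 unstimulated and 197, 129 and 736 stimulated at day 12. Actc1, the actin of heart and developing skeletal muscle, was lower in stimulated than in unstimulated means at both days, with stimulated day 12 library 3 lying among the unstimulated libraries; the log2 difference was -2.0 ± 0.63 at day 5 and -1.28 ± 0.61 at day 12 (edgeR, adjusted p = 0.377 and 0.472). Sln was 31.9, 36.4 and 30.1 CPM in the naive libraries, 43, 40.4 and 75.7 unstimulated and 203, 105 and 122 stimulated at day 5, and 58.7, 34.5 and 42.8 unstimulated and 73.2, 22 and 222 stimulated at day 12. Sln was higher in all 3 stimulated than in all 3 unstimulated libraries at day 5 (1.43 ± 0.60, edgeR, adjusted p = 0.555), and overlapped at day 12 (1.23 ± 0.60, adjusted p = 0.486). At day 5, 1 member was wholly higher and 1 wholly lower when stimulated, beside 7.10% and 5.78% of all genes. Des was 4222, 4045 and 3587 CPM in the naive libraries, 4319.6, 3975 and 3983 unstimulated and 4475, 4829 and 3925 stimulated at day 5, and 4326, 4718 and 4300.4 unstimulated and 5869, 4719 and 7025 stimulated at day 12. Des, the intermediate filament around the Z-disc, differed by 0.40 ± 0.15 at day 12 (edgeR, adjusted p = 0.298). Its groups all but touched there, with 4718 CPM in the highest unstimulated and 4719 in the lowest stimulated library. Stimulated day 12 library 3, which held the most Sln and Des of the 15, also held the highest sum of the 6 markers of muscle progenitors and regenerating fibres: 0.175% of counts, against 0.00962% to 0.0829% in the other tendon libraries. The part of those cells in the Sln and Des values was not tested.

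**Figure D2:**
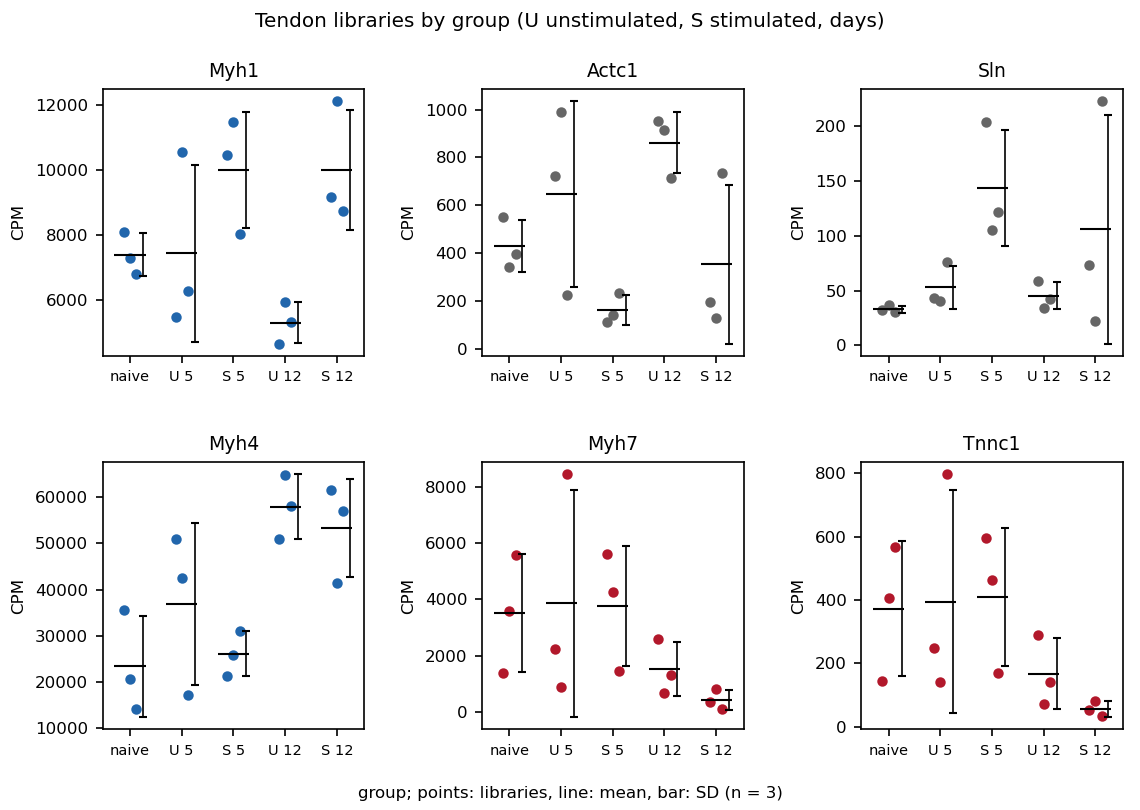
CPM (linear axis, its range set for each gene) of Myh1, Actc1, Sln, Myh4, Myh7 and Tnnc1 in each naive, unstimulated (U) and stimulated (S) tendon library at days 5 and 12, 1 panel a gene, points for libraries, lines for group means and bars for the SD (n = 3). Stimulated and unstimulated Myh1 are separate at day 12, Sln is separate at day 5, and none of these genes passed the adjusted threshold. Over all genes tested, 7.65% were wholly higher when stimulated at day 12 and 7.10% at day 5.

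Against naive tendon, the fast isoforms were higher at day 12 without stimulation. Of the 40 members, 17 rose and 0 fell in unstimulated day 12 tendon against naive (edgeR, adjusted p under 0.05), where 18.8% of all genes tested were called and 8.17% were called higher. The 17 were 13 of the 15 fast genes and 4 of the 15 shared genes. None of the 10 slow genes passed, although all 10 had estimates below 0, with a median log2 fold change of -1.33 against -0.03 over all genes. The median was 0.87 over the fast genes and 0.38 over the shared genes. Of the members, 23 were wholly higher and 6 wholly lower than naive in every library, and over all genes 22.3% were wholly higher and 25.4% wholly lower. Myh1 (-0.48 ± 0.23, adjusted p = 0.155) and Myh2 (-1.65 ± 0.77, adjusted p = 0.145) were the 2 fast genes without a call. DESeq2 called 20 members, 19 higher and 1 lower. Its calls over all genes are not given here, and the shares above are those of edgeR.

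Tnnc2 was 4928, 4118 and 3727 CPM in the naive libraries, 7912, 6861 and 3778 unstimulated and 5095, 5878 and 5524 stimulated at day 5, and 8613, 8587 and 7605 unstimulated and 8933, 7463 and 7659.9 stimulated at day 12. Tnnc2, the calcium sensor of fast fibres, rose 0.96 ± 0.22 (edgeR, log2, adjusted p = 0.016), with every day 12 library above every naive one. Tnni2 was 4035, 3499.6 and 2992 CPM in the naive libraries, 6454, 5533 and 3219 unstimulated and 4392, 5019.6 and 4595 stimulated at day 5, and 6325, 6975 and 6006 unstimulated and 6696, 6322 and 5521 stimulated at day 12. Tnni2, the fast troponin I that holds the thin filament off, rose 0.87 ± 0.21 (edgeR, adjusted p = 0.0178), again without overlap. Myoz1 was 1122, 812 and 584 CPM in the naive libraries, 1795, 1504 and 714 unstimulated and 1096, 1171 and 1242 stimulated at day 5, and 1809, 2160.4 and 1846 unstimulated and 2184, 1754 and 1802 stimulated at day 12. Myoz1, the Z-disc calsarcin of fast fibres, rose 1.21 ± 0.29 (edgeR, adjusted p = 0.0172), without overlap. Ldb3 was 1502, 1409.9 and 1446 CPM in the naive libraries, 1985, 1827 and 1837 unstimulated and 1498, 1752 and 1386 stimulated at day 5, and 2026, 2087 and 1987 unstimulated and 2246, 1791 and 1752 stimulated at day 12. Ldb3, a Z-disc scaffold of all fibres, rose 0.49 ± 0.12 (edgeR, adjusted p = 0.0199), without overlap. Myh4 rose 1.31 ± 0.38 (2.47-fold, edgeR, adjusted p = 0.0319), and Myh7 differed by -1.21 ± 0.91 (adjusted p = 0.36). The calls leaned on single libraries, over all genes as well as the members. Leaving out naive library 2 left 1 member called, naive library 3 or unstimulated day 12 library 2 left 0, unstimulated day 12 library 1 left 3, and its library 3 left 7. Over all genes the calls went from 3209 to 1424, 207, 85, 1328 and 1900.0 in the same fits, in that order.

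In stimulated day 12 tendon, slow isoforms fell and fast isoforms rose against the same naive libraries. Here 19 members rose (11 of 15 fast, 8 of 15 shared) and 8 fell, all of them slow, in a comparison where 24.4% of all genes were called, 11.8% higher and 12.5% lower. The 8 were Myh7, Myl2, Tnnt1, Tnni1, Tnnc1, Tpm3, Atp2a2 and Myoz2, and the slow genes without a call were Casq2 and Myl3. The median log2 fold change was -2.37 over the 10 slow genes, 0.86 over the fast and 0.42 over the shared, against -0.01 over all genes. Members wholly apart from the naive libraries numbered 22 higher and 10 lower, against 19.2% and 22.5% of all genes. DESeq2 called 30 members, 21 higher and 9 lower, again without its calls over all genes beside them. The comparison shares its naive libraries with the unstimulated one, so the 2 sets of calls are not independent, and the direct comparison of stimulated with unstimulated libraries at day 12 called no slow gene.

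The 4 slow genes with the smallest adjusted p-values were 3 of the thin filament and 1 of the Z-disc. Tnnt1 was 421, 903 and 1222 CPM in the naive libraries, 508, 374 and 1604 unstimulated and 1271, 1146 and 418 stimulated at day 5, and 522, 138 and 244 unstimulated and 101, 219 and 114 stimulated at day 12. Tnnt1, slow troponin T, fell by 2.55 ± 0.69 on the log2 scale (edgeR, adjusted p = 0.0207), with the stimulated day 12 libraries all below the naive ones. Tnnc1 was 145, 408 and 566 CPM in the naive libraries, 249, 140.3 and 797 unstimulated and 595, 464 and 168 stimulated at day 5, and 290.1, 70.0 and 140.1 unstimulated and 50.8, 82.2 and 33.2 stimulated at day 12. Tnnc1, the troponin C of slow and cardiac fibres, fell by 2.75 ± 0.77 (edgeR, adjusted p = 0.0248), without overlap. Tpm3 was 279, 665 and 1097 CPM in the naive libraries, 359.8, 167 and 1128 unstimulated and 1178, 806 and 347 stimulated at day 5, and 420.4, 135 and 243 unstimulated and 109, 157 and 59.7 stimulated at day 12. Tpm3, the slow tropomyosin, fell by 2.65 ± 0.76 (edgeR, adjusted p = 0.0262), without overlap. Myoz2 was 192, 327 and 355 CPM in the naive libraries, 191, 185 and 464 unstimulated and 347, 374 and 122 stimulated at day 5, and 163, 70.3 and 92.2 unstimulated and 57, 122 and 44.9 stimulated at day 12. Myoz2, the calsarcin of slow fibres, fell by 1.96 ± 0.54 (edgeR, adjusted p = 0.0231), without overlap.

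Slow and fast genes of the thick filament and of calcium handling that passed the test went the same ways. Myh7 fell by 3.05 ± 0.97 on the log2 scale, to 0.121 of its naive level (edgeR, adjusted p = 0.0387), and Myl2, the slow regulatory light chain, by 3.01 (adjusted p = 0.0485). Myl2 spanned 193 to 747 CPM in naive and 8.13 to 149 in stimulated day 12 libraries. Atp2a2, the slow and cardiac calcium pump, fell by 2.02 (edgeR, adjusted p = 0.0263), and Tnni1, slow troponin I, by 2.19 (adjusted p = 0.0492). Atp2a2 spanned 693 to 1901 CPM in naive and 273 to 384 in stimulated day 12 libraries, and Tnni1 157 to 545 and 48.0 to 111, both without overlap. Myl1 was 7709, 5954 and 5256 CPM in the naive libraries, 10852, 9504 and 5723 unstimulated and 6806, 7656 and 8767 stimulated at day 5, and 10869.8, 12021 and 10728 unstimulated and 13967, 11168 and 12530.1 stimulated at day 12. Myl1, the fast essential light chain, rose 0.99 ± 0.22 (edgeR, adjusted p = 0.0085), with every stimulated day 12 library above every naive one. Tnnc2 rose 0.91 ± 0.22, Myoz1 1.19 ± 0.29 and Tnni2 0.82 ± 0.21 (edgeR, adjusted p = 0.012, 0.0124 and 0.0158). Myh4 rose 1.19 ± 0.38 (adjusted p = 0.0372), while Myh1 (0.44 ± 0.23, adjusted p = 0.182) and Myh2 (-1.77 ± 0.77, adjusted p = 0.11) did not pass. Every slow call was lost without naive library 3 (1 member higher, 0 lower), stimulated day 12 library 1 (2 higher, 0 lower) or its library 3 (9 higher, 0 lower), and without the filter on low counts (14 higher, 0 lower). Without naive library 2, 5 members were called higher and 1 lower. Over all genes these 5 fits called, in that order, 1649, 1713, 2998, 3058 and 2544, against 4169. With a replicate block the calls of Myh7 (edgeR, adjusted p = 0.0724), Myl2 (0.0713) and Tnni1 (0.0595) were lost. Naive library 3 had the most slow-gene counts of the naive group.

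**Figure D3:**
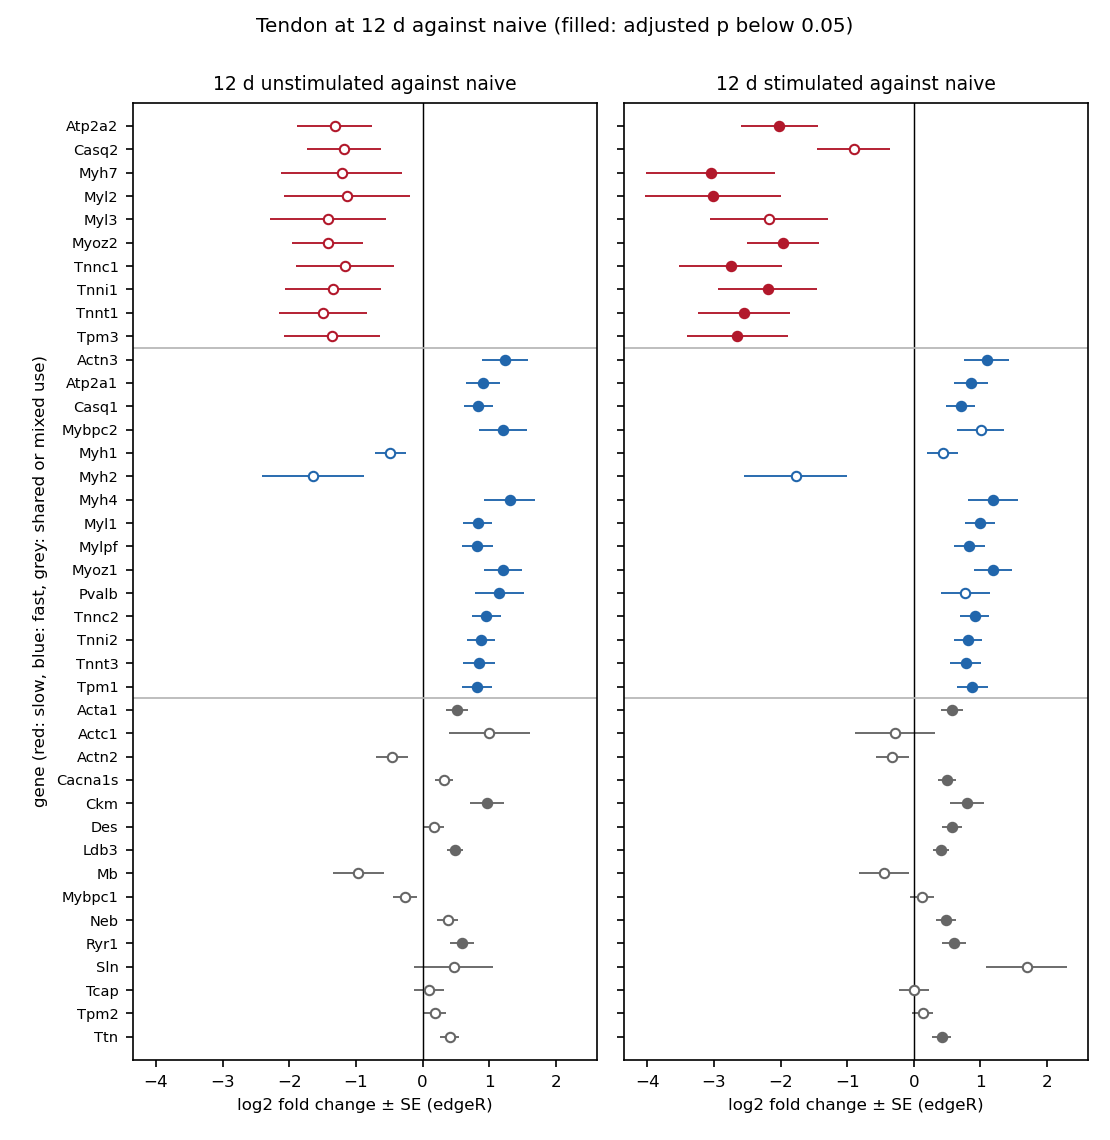
Log2 fold change with its standard error for each of the 40 genes at day 12 against naive tendon, unstimulated and stimulated side by side, grouped into slow, fast and shared genes, with filled points for calls at an adjusted p under 0.05. All 10 slow genes lie below 0 in both, with 8 called when stimulated and 0 when unstimulated, and most fast genes lie above 0.

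Markers of some other cell types differed between these groups too. The tendon fibroblast sum was 0.197% to 0.351% of counts in naive tendon, 0.0478% to 0.104% in unstimulated and 0.0379% to 0.142% in stimulated tendon at day 12, while the members' share of counts was higher at day 12. Erythroid markers summed to 0.0116% to 0.0178% in naive tendon, 0.00264% to 0.00309% unstimulated and 0.00216% to 0.0043% stimulated at day 12. The sums of osteoblast and neutrophil markers were lower at day 12 as well, without overlap, all under 0.005% of counts. Smooth muscle and pericyte markers summed to 0.0585% to 0.0871% in naive tendon, 0.0601% to 0.0818% unstimulated and 0.0351% to 0.0533% stimulated at day 12. Schwann markers overlapped: 0.0106% to 0.0990% in naive, 0.00614% to 0.0686% in unstimulated and 0.00501% to 0.0412% in stimulated day 12 tendon. The part of these changes in tissue make-up in the calls was not tested. To set members against the total over the 40 genes, library sizes were replaced by that total. This moved the median of all genes tested to -0.72 for unstimulated and -0.68 for stimulated day 12 against naive. On that scale, unstimulated day 12 tendon had 5 members higher (Myh4, Actn3, Mybpc2, Myoz1 and Tnnc2) and 16 lower, with 70.1% of all genes called. The lower ones included 6 slow genes and 2 fast ones, Myh2 (-2.35, edgeR, adjusted p = 0.0274) and Myh1 (-1.17, adjusted p = 0.0029). Stimulated day 12 tendon had 2 higher (Myl1 and Myoz1) and 14 lower, with 65.1% of all genes called. The 14 were all 10 slow genes with Myh2, Actn2, Tcap and Tpm2. The 8 slow genes called lower in stimulated day 12 tendon on the first scale were among the 10 called here, and 9 of the 11 fast genes called higher on the first scale were not called higher here. The scaling itself lowers estimates, and fast genes held 17.2% of counts of the members' 26.5% in stimulated day 12 tendon. Both overlaps were thus largely set by the scaling and add no support.

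The day 5 groups were less different. Against naive, 0 members were called in unstimulated (0.0351% of all genes) and 0 in stimulated day 5 tendon (2.29%). At an unadjusted p under 0.05 (edgeR) there were 6 and 3 members, beside 1870 and 3352 of all 17108 genes. DESeq2 called 0 and 1 of the members. Without unstimulated day 5 library 3, the library with the most Myh7, 8 members were called higher in unstimulated day 5 tendon, and 297 of all genes were called, against 6 with it. That library also held 0.238% of counts on Schwann and 0.203% on tendon fibroblast markers. Libraries 1 and 2 of its group held at most 0.0104% and 0.0645%. Between days, 0 members were called from day 5 to day 12 in unstimulated (0.0234% of all genes, 6 members at an unadjusted p under 0.05, 0 by DESeq2) or in stimulated tendon (0.187%, 24 members, 10 by DESeq2). That unadjusted threshold (edgeR) was passed by 2097 of all 17108 genes in the unstimulated and by 2978 in the stimulated comparison. In the stimulated comparison between days, 9 of the 10 slow genes had an unadjusted p under 0.05 and the median slow difference was -2.53. Its 3 smallest adjusted p-values among slow genes belonged to Tnnt1 (-2.71 ± 0.69, edgeR, adjusted p = 0.11), Tpm3 (-2.84 ± 0.76, 0.115) and Tnnc1 (-2.89 ± 0.78, 0.116). Scaled to the members' total, 9 members were called lower there, 7 of them slow with Tcap and Neb, where 25.1% of all genes were called. The change of the stimulation effect from day 5 to day 12 was called for 0 members and for 0% of all genes (edgeR). At an unadjusted p under 0.05 (edgeR) there were 0 members, beside 699 of all genes, and DESeq2 called 0 members.

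Ratios of paralogs within a library do not use the library's total. Whether they move with its muscle content where a paralog is also expressed outside muscle was not tested. Atp2a2/Atp2a1 was 2.90 (log2) in naive bone library 3, almost without muscle genes, against -4.96 to -2.05 in the other bone libraries. For 14 pairs, most of them a slow over a fast isoform, the log2 ratio was compared between the 12 later tendon libraries and the 3 naive ones, and between stimulated and unstimulated libraries within days, by two-sided exact permutation tests adjusted over all 28 tests. All 14 later-minus-naive differences were below 0, but none of the 14 passed. The smallest exact permutation p was 0.0637 for Myoz2/Myoz1 (-1.86, adjusted p = 0.373), where the design could reach 0.0022. The exact permutation p was 0.182 for Myh7/Myh4 (-2.05) and 0.165 for Tnnc1/Tnnc2 (-1.62). For troponin C the mean log2 ratio was -3.72 ± 1.23 in naive tendon, -4.28 ± 1.79 unstimulated and -3.93 ± 1.0 stimulated at day 5, and -5.86 ± 1.03 unstimulated and -7.27 ± 0.69 stimulated at day 12 (SD, n = 3 each). Without unstimulated day 5 library 3, 6 of the 14 pairs had an unadjusted exact permutation p under 0.05 (smallest 0.0137). Between stimulated and unstimulated libraries 0 pairs passed either, with 1 at an unadjusted exact permutation p under 0.05.

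Among the 4 adult heavy chains, scaled by length, Myh4 made up 44.3% to 90.0% of the myosin message over the 15 tendon libraries (median 73.6%), Myh1 7.37% to 25.3%, Myh2 0.362% to 25.4% and Myh7 0.105% to 15.1%. The Myh4 share was 45.8% to 73.6% in naive tendon, 85.1% to 90.0% in unstimulated and 72.8% to 86.9% in stimulated tendon at day 12. The Myh1 share did not overlap between stimulated and unstimulated tendon at either day: 18.3% to 25.3% against 8.44% to 17.2% at day 5, and 12.1% to 20.2% against 7.37% to 7.80% at day 12. That separation was noticed after the values were seen and is given without a test.

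**Figure D4:**
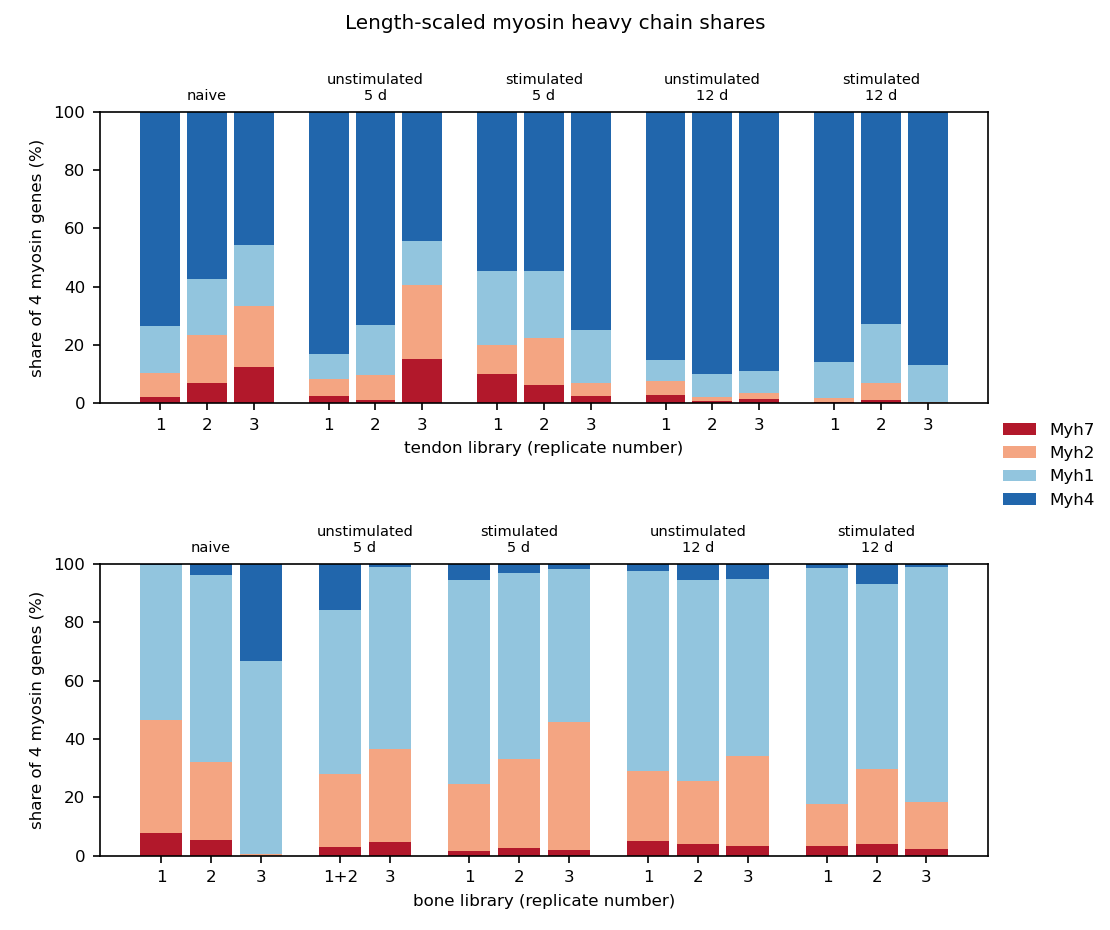
Share of the 4 adult myosin heavy chains (CPM per kb, in percent of their sum) in each tendon and bone library, stacked to 100% by library and ordered by group. Myh4 is the largest part of every tendon library (44.3% to 90.0%), and Myh1 the largest part of every bone library (52.5% to 80.7%).

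Genes of the same structures outside the 40 came from lists made from textbook knowledge, with earlier results of these data known. Of 29 other sarcomere genes, 5 rose and 2 fell in unstimulated day 12 tendon against naive, and 14 rose and 4 fell in stimulated, beside 18.8% and 24.4% of all genes called in these comparisons. Of 17 other genes of the triad and calcium release, 11 rose in unstimulated and 10 in stimulated, with 0 lower. Of 19 regulators of fibre type, 2 rose and 2 fell in unstimulated, and 6 rose and 2 fell in stimulated day 12 tendon. The counts for the sarcomere and regulator lists in unstimulated tendon are near the share over all genes. In stimulated day 12 tendon the smallest adjusted p-values of the sarcomere list belonged to Xirp2, an actin-binding protein of attachment sites (0.64 ± 0.10, edgeR, adjusted p = 0.00254), and Myom1, an M-band protein (0.63 ± 0.12, 0.00438). For the triad list they belonged to Bin1, which shapes T-tubules (0.76 ± 0.15, edgeR, adjusted p = 0.00581), and Dysf, a membrane repair protein (1.06 ± 0.22, 0.00748). Ppargc1a, the coactivator of mitochondrial and oxidative fibre genes, rose 2.0 ± 0.30 (edgeR, adjusted p = 0.00244), and Prox1, a transcription factor of slow fibres, fell by 1.3 ± 0.30 (0.0099). Ppargc1a was also the only gene of these lists called between stimulated and unstimulated tendon, at day 12 (1.59 ± 0.30, edgeR, adjusted p = 0.0482; 0.0138 to 0.199 when single libraries were left out). That call was lost with a replicate block (adjusted p = 0.0704), without the filter on low counts (0.114), with the members' total as library size (0.0659) and in a fit of only the libraries compared (0.358). Ppargc1a was also called in stimulated day 5 tendon against naive (1.29 ± 0.30, adjusted p = 0.0443; 0.0808 to 0.186 when single libraries were left out, 0.112 without the filter and 0.126 with the members' total).

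In bone, the same genes were present at lower and uneven levels. The 40 genes held 1.55% ± 1.39 of counts in naive bone (n = 3), 3.31% ± 0.178 unstimulated (n = 2) and 1.95% ± 1.47 stimulated (n = 3) at day 5, and 2.3% ± 0.757 unstimulated and 4.0% ± 2.02 stimulated at day 12 (n = 3 each). Naive bone library 3 stood apart with 0.122%. Acta1 was 4209, 2157 and 31.5 CPM in naive bone, 4657 and 5039.8 unstimulated and 5027, 1667 and 1635 stimulated at day 5, and 4165, 1881 and 4133 unstimulated and 2741, 5782 and 8615 stimulated at day 12. Ckm was 656, 424 and 10.1 CPM in naive bone, 1199.7 and 1059.6 unstimulated and 1305, 313 and 338 stimulated at day 5, and 1000.3, 471 and 820.4 unstimulated and 833, 1431 and 2498 stimulated at day 12. Acta1 and Ckm, the muscle creatine kinase, thus went from near 0 in naive library 3 to their highest values in stimulated day 12 library 3. Mb was 967, 421 and 1.25 CPM in naive bone, 743 and 1243 unstimulated and 596, 214 and 260.4 stimulated at day 5, and 1186, 476 and 804 unstimulated and 481, 1089 and 1463 stimulated at day 12. Tnnc1 was 161, 79.7 and 0.652 CPM in naive bone, 119.9 and 236 unstimulated and 101, 57 and 77.6 stimulated at day 5, and 207, 53.7 and 109 unstimulated and 72.7, 173 and 193 stimulated at day 12. Myoz2 was 136, 55 and 0.452 CPM in naive bone, 78.6 and 123 unstimulated and 45.4, 21.2 and 22.4 stimulated at day 5, and 109.6, 48.4 and 101 unstimulated and 27, 76.7 and 83.9 stimulated at day 12. All of these genes were lowest by far in naive library 3.

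Of the 40 genes, 34 were in naive bone library 3 at under 5% of their median in the other bone libraries, 4 at 5% to 50% and 2 above. Those 2 were Tpm3, at 103% of that median, and Atp2a2, at 81.8%; both are also expressed outside skeletal muscle. Myh7 had 0 reads there, where a count of 0 allows up to 0.151 CPM (counting error only). Over the 13 other bone libraries the members varied together. The SD of log2 CPM was a median of 0.823, and 0.293 after division by Acta1 of the same library, with 37 of 39 genes less variable as a ratio. These values are given without a test, and the part of muscle content in them was not tested.

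Tpm3 was 350.1, 367 and 306 CPM in naive bone, 305 and 319.9 unstimulated and 278, 272 and 283 stimulated at day 5, and 287, 269 and 264 unstimulated and 318, 299.8 and 299 stimulated at day 12. Tpm3 stayed within 264 to 367 CPM in all 14 bone libraries, including the one almost without muscle genes. It was the one member called in bone across the groups: 273 ± 12 CPM in unstimulated day 12 against 341 ± 31 in naive bone (SD, n = 3 each; -0.32 ± 0.08, edgeR, adjusted p = 0.0176), in a comparison where 21.8% of all genes were called and 11.7% were called lower. The call was lost without naive library 2 or unstimulated day 12 library 3, without the filter on low counts and in a fit of only the libraries compared. Stimulation against no stimulation called 0 members at day 5 (0% of all genes, 1 member at an unadjusted p under 0.05, 0 by DESeq2) and 0 at day 12 (0.0371%, 0 members, 0 by DESeq2). That unadjusted threshold (edgeR) was passed by 1522 and 2757 of all 18851 genes. At day 5 all 40 estimates were below 0, beside 9331 of all 18851 genes, and at day 12 36 were above 0, beside 9202. Most of the members varied together across bone libraries, so these signs are not separate results. Acta1 stood at -0.80 ± 1.22 and 0.75 ± 1.11 (edgeR, adjusted p = 0.882 and 0.803) and Ckm at -0.79 ± 1.14 and 1.06 ± 1.05 (0.877 and 0.687). Against naive bone, edgeR called 0 members in unstimulated day 5 (0.435% of all genes, 1 member at an unadjusted p under 0.05, 0 by DESeq2), stimulated day 5 (0.228%, 2 members, 1 by DESeq2) and stimulated day 12 bone (4.54%, 4 members, 2 by DESeq2). Of all 18851 genes, 2781, 3069 and 4367 had an unadjusted p under 0.05 (edgeR) in these comparisons, in that order.

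The 40 genes did not stand in the same proportions in bone as in tendon. All 40 genes were higher in naive tendon than in naive bone, in a comparison where 68.4% of 19845 genes were called and 33.3% were called higher in tendon. The median log2 difference was 4.54 over fast genes, 4.18 over shared and 3.38 over slow genes. Mybpc2 was 4974, 3307 and 2268 CPM in naive tendon and 20.4, 21 and 3.46 in naive bone. Actc1, at 549, 344 and 397 CPM in naive tendon, was 3.62, 3.84 and 0.10 in naive bone. Neither gene overlapped between the tissues. The smallest adjusted p-values belonged to Mybpc2, fast myosin-binding protein C (8.55 ± 0.97, 375-fold, edgeR, adjusted p = 8.22e-08), Tpm1, the fast tropomyosin (3.39 ± 0.45, 5.64e-07), Actc1 (8.07 ± 1.08, 1.04e-06) and Myh4 (9.44 ± 1.39, 3.16e-06). Differences were much smaller for Myh1 (2.64, edgeR, adjusted p = 0.0106), Myh2 (3.03, 0.0417) and Tpm3 (1.68 ± 0.56, 0.0109). Scaled to the members' total, which moved the median of all genes to -6.39, 5 members were higher in tendon (Myh4 4.21, Actc1 3.88, Mybpc2 3.58, Myl3 2.25 and Actn3 1.82) and 3 lower (Tpm3 -4.55, Atp2a2 -2.94 and Tpm1 -2.04), with 96.2% of all genes called. In naive bone library 3, Acta1 was at 0.756% of its median in the other bone libraries. Tpm3, Atp2a2 and Tpm1 were there at 103%, 81.8% and 23.9% of theirs. The part of expression outside muscle in these 3 was not tested.

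Myh1 was 3318, 2361 and 29.9 CPM in naive bone, 3685 and 4324 unstimulated and 5209, 1354 and 878 stimulated at day 5, and 2651, 1765 and 3129 unstimulated and 2375, 4431 and 9459 stimulated at day 12. Myh4 was 15.7, 132 and 14.4 CPM in naive bone, 985 and 65.4 unstimulated and 395, 64.9 and 28 stimulated at day 5, and 86.1, 137 and 247 unstimulated and 42.5, 469 and 119 stimulated at day 12. Myh4 was below Myh1 in every bone library, the reverse of tendon, and it did not follow Acta1: unstimulated day 5 libraries with 4657 and 5040 CPM of Acta1 had 985 and 65.4 CPM of Myh4. Without naive library 3, Myh1 made up 52.5% to 80.7% of the length-scaled adult myosin message in bone, Myh2 14.4% to 43.7%, Myh7 1.56% to 7.61% and Myh4 0.266% to 15.8%. Naive library 3 had 888 reads on the 4 genes, with Myh4 at 33.4%. Per kb, Myh4 was at rank 32 of the 40 genes in bone and Myh1 at rank 7. Relative to Acta1 of the same naive libraries, the members with the highest bone to tendon ratio were Tpm3 (6.60; 4.71 without naive bone library 3), Myh1 (3.50 with and without it), Mb (3.25; 3.27), Myoz2 (2.95; 2.96) and Tnnc1 (2.89 both ways), and the lowest were Myh4 (0.031) and Mybpc2 (0.058). Markers of blood cells differed between the tissues as well, with erythroid genes at 0.370% to 4.99% of counts in bone and at most 0.0178% in tendon. Which muscle or other source the message in the bone libraries came from was not tested.

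**Figure D5:**
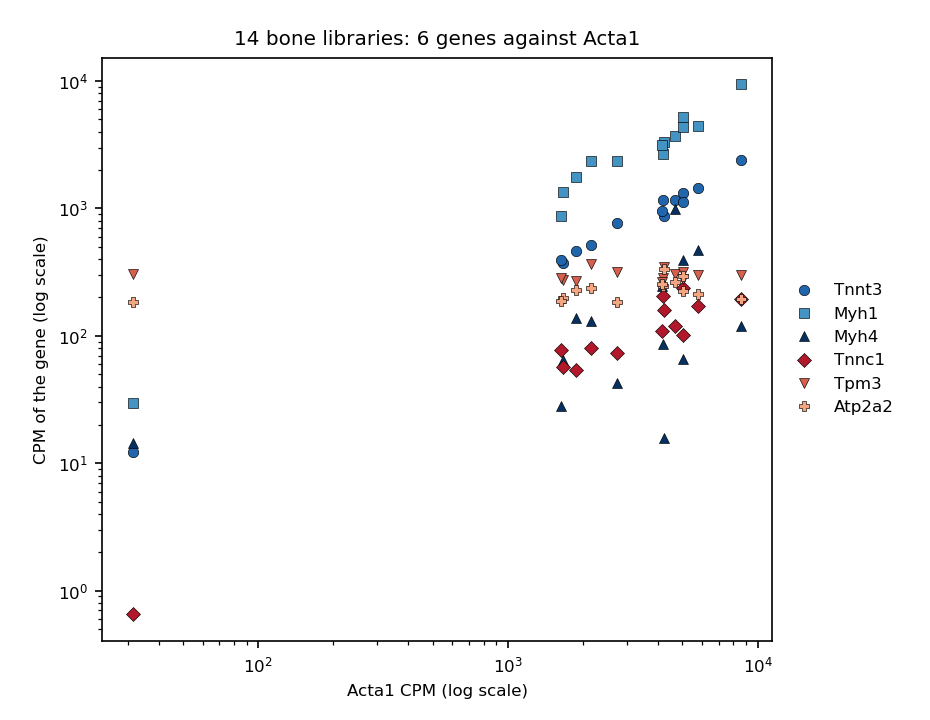
CPM of Tnnt3, Myh1, Myh4, Tnnc1, Tpm3 and Atp2a2 against CPM of Acta1 in the 14 bone libraries, 1 colour and symbol a gene, 1 point a library, both axes logarithmic. 1 library stands alone at the low end of the Acta1 range (31.5 to 8615 CPM); Tnnt3, Myh1 and Tnnc1 follow Acta1, Tpm3 and Atp2a2 stay level, and Myh4 scatters.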

How the data were processed

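RNA of 30 tissue samples was extracted with a PureLink kit and made into poly-A libraries, per the labels' protocols. Per the submitters' processing notes, the tools were cutadapt 2.3, FastQC 0.11.8, STAR 2.7.8a, RSEM 1.3.3 and MultiQC 1.7 with GRCm38; neither an annotation release nor a strand setting is given in the sources used here, so overlapping and antisense genes may share reads. The deposited values are expected counts from RSEM, which divide the reads of near-identical paralogs such as the myosin heavy chains by an estimate; all values were whole. Gene IDs matched GENCODE M21 for 55154 of 55426 (99.5%).

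Groups came from the labels; titles that name a stimulated control were taken as stimulated, as their treatment field has it. The tests used the robust quasi-likelihood model of edgeR 4.0.16 (R 4.3.3), with TMM factors and filterByExpr at a minimum count of 10 and total of 15, in 1 fit a tissue, or 1 over both tissues for naive tendon against bone, with Benjamini-Hochberg adjustment over all genes tested and a threshold of 0.05, for 16 comparisons. Each ± beside a log2 fold change is a standard error, and beside CPM or a share an SD. Ratios used counts plus 0.5. The values of 1 pair are not reported here. The test was checked on simulated data. Alternatives were DESeq2 1.42.0, its size factors in edgeR, no filter, the members' total as library size, a replicate block, only the libraries compared, the nearly identical bone pair kept as 2 samples, and single libraries left out. The members, roles and lists were chosen with earlier results of these data known. Named were the 4 adult myosins, members called between stimulated and unstimulated libraries, the 4 called members with the smallest adjusted p per direction in other comparisons, Acta1 and Ckm in bone with the 5 members of highest bone to tendon ratio, and the leading genes of other lists; further genes were named after their values were seen.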

Additional observations from a re-analysis of the deposited data

How the results depend on the processing

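Alternatives moved these counts of members called. Without the filter on low counts, stimulated day 12 tendon against naive gave 14 (14 higher, 0 lower) and unstimulated day 12 bone against naive 0. With the members' total as library size, the counts were 16 for stimulated day 12 tendon against naive, 9 for stimulated tendon from day 5 to day 12, 8 for naive tendon against naive bone, and against naive bone 1 for unstimulated day 5, 0 for unstimulated day 12 and 2 for stimulated day 12. DESeq2 gave 1 for day 12 stimulation in tendon, 1 for stimulated day 5 tendon against naive, 10 for stimulated tendon from day 5 to day 12, and 1 and 2 for stimulated day 5 and day 12 bone against naive. With only the libraries compared, the counts were 1 for stimulated day 5 and 16 (10 higher, 6 lower) for stimulated day 12 tendon against naive, 0 for unstimulated day 12 bone against naive and 24 for naive tendon against naive bone. Leaving out single libraries gave 0 to 16 members in unstimulated and 1 to 28 in stimulated day 12 tendon against naive, 0 to 8 in unstimulated day 5 tendon against naive, 0 to 3 in stimulated tendon from day 5 to day 12, 0 to 1 in unstimulated day 12 bone against naive and 37 to 40 between naive tendon and bone; all other counts stayed at 0, both sets of paralog ratios included. Where calls over all genes in the same fits are given above, they moved as well. The other counts of members, those of DESeq2 included, stand without the share of all genes called. The cause of these differences was not tested.

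Signs that turned were as follows. With the members' total as library size, in day 12 tendon against naive, Ldb3 (unstimulated) was -0.21, and when stimulated Myh1 was -0.21, Xirp2 -0.017, Myom1 -0.034, Hrc -0.13 and Mef2a -0.10; in bone at day 5 the stimulation difference of Acta1 was 0.043; and between naive tendon and bone Tpm1 was -2.04, Tpm3 -4.55, Myh1 -1.24 and Myh2 -0.59. When single libraries were left out, the stimulation difference ranged at day 5 from -1.07 to 0.073 for Myh2 and from -0.51 to 1.28 for Myh7 (0.36 without stimulated library 3), and at day 12 from -1.29 to 0.38 for Myh2 (0.34 and 0.043 without library 1 of the unstimulated and of the stimulated group) and from -0.25 to 0.024 for Myh4. Of all comparisons for single genes, 340 kept direction and side of the threshold under the other settings, 38 lost the call, 12 gained it and 12 turned; with single libraries left out these numbers were 300, 80, 1 and 7.

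Same-numbered tendon libraries did not meet the rule for pairing, every correlation over 0.1: theirs ran from -0.28 to 0.34 (median 0.052, against -0.053 for other pairs), 11 of 30 above 0.1, among them all 6 between the libraries numbered 3 of the later groups. With a replicate block, members called at day 12 against naive were 18 unstimulated and 25 stimulated (20 higher, 5 lower), naive tendon against bone gave 39, and Myh7 at day 5 was 0.063; every other count of members was as without it. The shares of all genes called with the block are not given here. Slow genes carried as few as 265 reads in a tendon library (Myl2). The part of depth in these comparisons was not tested.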
